A study of Homo sapiens with 6 samples.

Results

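The genes FAS, TNFRSF10A, TNFRSF10B, EDA2R, PHLDA3, BAX, BBC3, PMAIP1, AEN and TP53I3, which p53 is known to switch on and which act in cell death, were followed in OCI-AML5 cells exposed to the compound S767 or to its solvent. They were picked by symbol out of 60609 listed genes, and all 10 were found in the files and passed the limit on low counts. The list was selected on measured values of these libraries, the ratios of S767 to DMSO within each replicate number, so that comparison is given here as a description and not as a test. OCI-AML5, a human cell line derived from acute myeloid leukemia, was grown with the cytokine GM-CSF for every library. The DMSO group is 3 libraries from cells that received DMSO for 24 hours, and the S767 group is 3 libraries from cells that received 1 μM S767 for 24 hours. Both groups come from the same cell line, with no genetic alteration named in the labels, so the values describe this line only. The labels number the replicates from 1 to 3 without saying that they are separate cultures. The methods of the paper state that cells were treated in triplicate, without saying what a replicate number shares. The p-values measure only the spread between these samples, which may be technical.

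The transcription factor p53 responds to DNA damage and other stress, and its protein level is held down by MDM2, itself a p53 target. Its targets reach cell death by more than one route. Death receptors on the cell surface (FAS, and TNFRSF10A and TNFRSF10B, which bind the ligand TRAIL) recruit the adaptor FADD and activate caspase-8, whereas EDA2R is a related receptor for a form of ectodysplasin. At the mitochondrion, BAX forms pores in the outer membrane, and the BH3-only proteins PUMA (gene BBC3) and NOXA (gene PMAIP1) neutralize the protective members of the BCL2 family. PHLDA3 restrains the survival kinase AKT, AEN is a nuclease active in apoptosis, and TP53I3 is a quinone oxidoreductase linked to oxidative stress.

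p53 binds DNA as a tetramer, and its consensus element is a pair of half-sites of 10 bases. RefSeq promoter windows (GRCh38.p14) were at hand for 7 of the 10 genes, in 10 windows because FAS has 3 listed starts and EDA2R has 2. The 250 bases before each start were searched for the consensus p53 half-site, which reads the same on both strands in its consensus form. Windows overlap each other in places, among them 2 of the 3 FAS windows, the 2 EDA2R windows and windows of other genes. A half-site was found in 2 of the 10 windows, compared with 5.57% of all 35116 windows. Those sites are shown because they are the only matches among these genes, with the half-site in capitals and 10 bases on either side. The AEN site lay at chr15:88621296-88621325 on the plus strand, its first capital base 34 bases before the start, in the untranslated first exon of a longer AEN transcript in GENCODE 29. The FAS site lay at chr10:88991299-88991328 on the plus strand, 122 bases before the most downstream of the listed starts and inside the FAS gene. It falls in an exon of non-coding FAS transcripts and, on the other strand, in an untranslated exon of ACTA2.
AEN: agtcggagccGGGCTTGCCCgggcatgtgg
FAS: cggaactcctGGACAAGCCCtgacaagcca
In neither window did 2 exact half-sites stand within 13 bases of each other. Only 9 of all 35116 windows held such a pair, so nothing is read from its absence. A match is a run of letters and not evidence of binding.

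Libraries held between 149994700 and 258029564 fragments counted on genes, 79.3 to 80.3% of all fragments, and the 10 genes took 0.0533% of these. The lowest count was 563 fragments, for TP53I3 in DMSO replicate 2, so counting error was small for every gene. Intervals for counting error are not given because the spread between libraries was larger. Levels per transcript length are given in TPM (transcripts per 1000000 transcripts, the RSEM values). Of 8 markers of myeloid leukemia cells, 6 were above 1 TPM in every library, among them the transcription factor SPI1 (214 to 258 TPM) and the surface protein CD33 (88.6 to 105.9 TPM), whereas the progenitor markers CD34 (0.61 to 2.65 TPM) and KIT (0.14 to 0.42 TPM) were low. Of the T cell markers, CD3E was listed at 0 in every library, CD3D was at 0.09 to 0.78 TPM and TRAC at 2.42 to 6.30 TPM, and of the B cell markers MS4A1 did not exceed 0.01 TPM, although CD79A was at 6.63 to 11.2 TPM. The 3 erythroid markers were at or near 0, with a summed level of at most 0.01 TPM. The summed level of the T cell list was 2.89 to 7.08 TPM in DMSO and 2.54 to 4.03 in S767, and that of the B cell list was 6.73 to 10.9 and 6.79 to 11.3. The summed epithelial markers reached 0.22 TPM in DMSO and 0.35 in S767, and the summed fibroblast and endothelial markers ran from 2.14 to 3.36 TPM in DMSO and from 2.35 to 3.42 in S767. Nearly all of the latter was PECAM1 (2.13 to 3.37 TPM), whereas COL1A1, COL1A2 and VWF did not exceed 0.08 TPM. The part of all these markers in the results was not tested.

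All 10 genes were expressed in solvent-treated cells, over a 58.4-fold range of TPM. The pore-forming BAX was the most abundant transcript, at 269, 241 and 232 TPM in DMSO replicates 1, 2 and 3. TNFRSF10B followed at 66.6, 54.0 and 63.6 TPM, and AEN stood at 46.9, 42.7 and 44.6 TPM. PMAIP1 was at 30.2, 52.4 and 33.6 TPM, with replicate 2 well above the others, so its range crossed that of AEN and their order is not resolved. TNFRSF10A (16.4, 17.0 and 17.8 TPM), PHLDA3 (15.7, 13.3 and 14.1 TPM) and BBC3 (11.4, 10.2 and 11.5 TPM) came next, each with its own range. The lowest were TP53I3 at 4.88 ± 0.47 TPM, FAS at 4.79 ± 0.29 and EDA2R at 4.24 ± 0.60 (mean ± SD, n = 3), whose ranges overlapped. The median TPM of the 20725 genes tested was 3.76, below all 10. Scaling the stranded counts by length instead of using the RSEM estimates kept the order of the 7 most abundant and placed FAS (5.78), EDA2R (5.74) and TP53I3 (5.71 TPM) almost level. The plot of levels in DMSO shows the gap between BAX and the other genes.

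**Figure D1:**
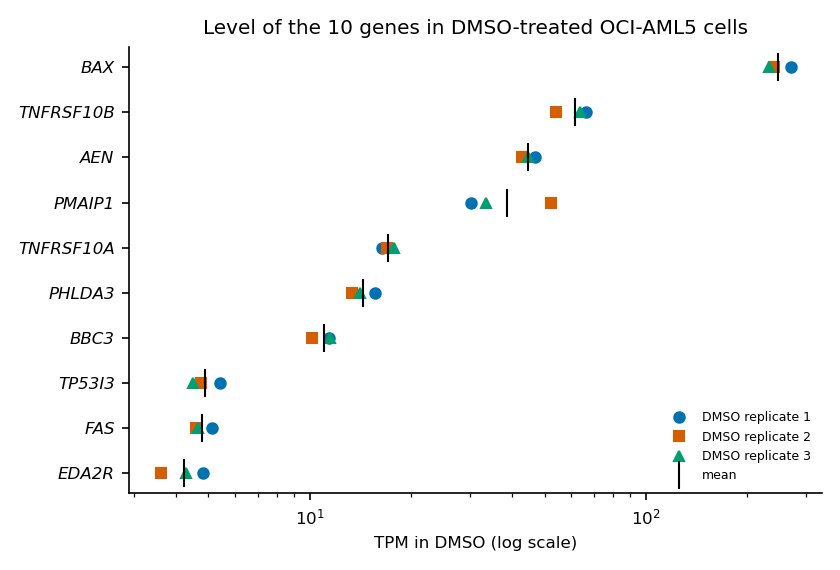
TPM of the 10 genes in the 3 DMSO libraries, on a log axis, 1 row per gene, with colored symbols for replicates and a black bar for the mean. BAX lies at 232 to 269 TPM, and TP53I3, FAS and EDA2R share the range from 3.61 to 5.40 TPM.

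S767 was then set against DMSO. Counts were scaled to counts per 1000000 (CPM) with the TMM factors of edgeR, and fold changes are given on the log2 scale. In S767, 9 genes were higher and PMAIP1 was lower, with a median log2 fold change of 0.14 over the 10 genes and -0.00024 over all genes tested. The 3 genes that stood out were FAS, EDA2R and PHLDA3, each about 1.35-fold higher (1.36, 1.35 and 1.35). In whole-culture RNA, a change in the share of cells that express a gene and a change in RNA per cell cannot be told apart.

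In 6 genes (FAS, TNFRSF10A, EDA2R, PHLDA3, BBC3 and AEN) every S767 library was above every DMSO library in CPM, which held for 5.12% of all genes tested. In 9 genes S767 was above DMSO in all 3 replicate numbers, which held for 19.9% of all genes. The study's limits for up-regulated genes (unadjusted P below 0.05, log2 fold change above 0.4) were passed by FAS, EDA2R and PHLDA3, and by 0.429% of all genes. No member passed an adjusted p of 0.05 in the quasi-likelihood test of edgeR without a block, nor did limma-voom call any, while DESeq2 called FAS, EDA2R and PHLDA3. Of all genes, edgeR called 1 (0.00483%) and DESeq2 called 25 (0.121%). In all, 5 members had an unadjusted P under 0.05 in that edgeR test, against 3.53% of all genes. With the replicate number as a block, 6 members were called higher (FAS, TNFRSF10B, EDA2R, PHLDA3, BBC3 and AEN), where 3.23% of all genes were called and 2.16% were called higher. Since this contrast chose the list, nothing is read from these counts. They also leaned on single libraries, since without DMSO replicate 2 no member passed the study's limits, without S767 replicate 1 EDA2R and PHLDA3 did, without S767 replicate 3 FAS and PHLDA3 did, and with the block but without replicate 2 only PHLDA3 was called, as were 0.113% of all genes.

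**Figure D2:**
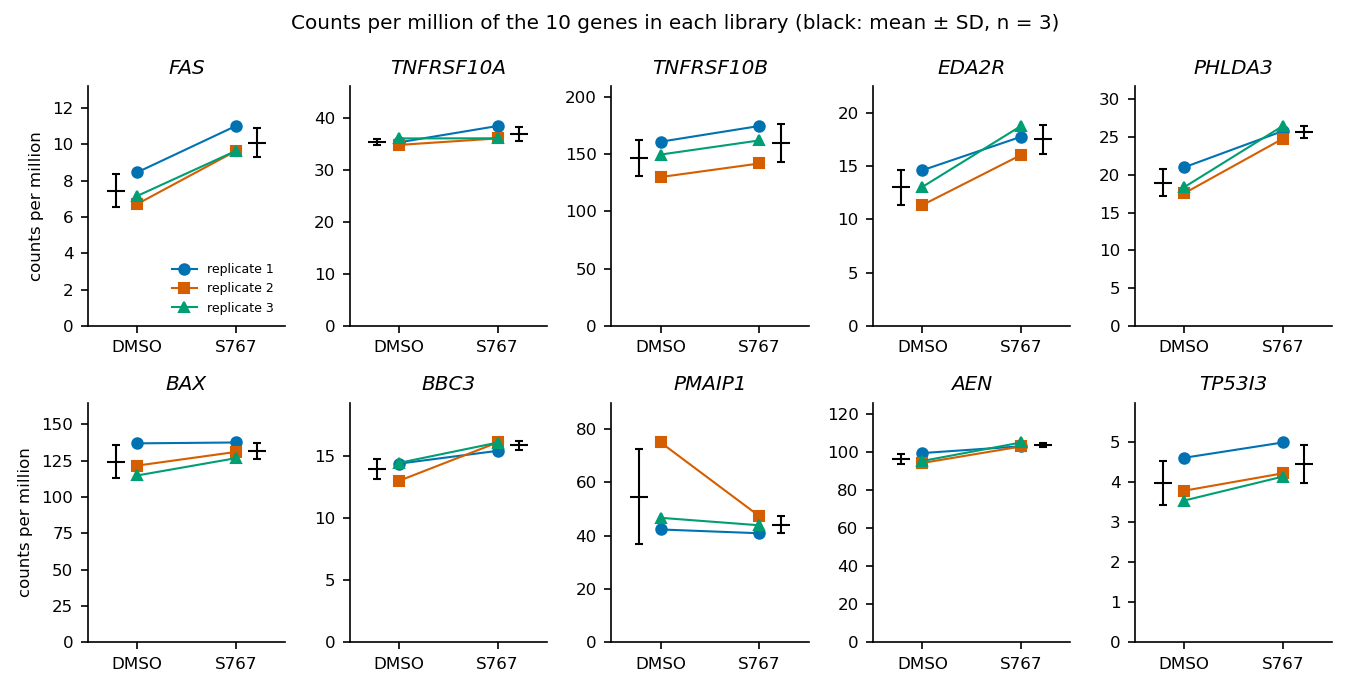
CPM (y axis, from 0) of each of the 10 genes in DMSO and S767, with a line joining the libraries of each replicate number and black bars for mean ± SD (n = 3). FAS, EDA2R and PHLDA3 lines climb in all 3 replicate numbers, and DMSO replicate 2 of PMAIP1, at 74.9 CPM, stands apart.

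Among the receptors, FAS (ENSG00000026103.22, chromosome 10, 88990582 to 89015785, plus strand) had 8.46, 6.71 and 7.16 CPM in DMSO replicates 1 to 3 and 11.0, 9.63 and 9.64 CPM in S767. The groups did not overlap, and replicate 1 was the highest of both. Its log2 fold change was 0.44 (SE 0.10, n = 3 per group), with 0.38, 0.52 and 0.43 within the replicate numbers. ACTA2 overlaps FAS on the opposite strand, and fragments of that strand, which the stranded counts leave out, were 70.7% as many as those of FAS itself. When both strands were counted together, the log2 fold change of FAS was 0.46.

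EDA2R (ENSG00000131080.15, chromosome X, 66595637 to 66639298, minus strand) had 14.6, 11.3 and 13.04 CPM in DMSO and 17.7, 16.0 and 18.8 CPM in S767. Every S767 library was above every DMSO library. The log2 fold change was 0.43 (SE 0.10), from 0.28 in replicate 1 to 0.52 in replicate 3.

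The TRAIL receptors differed less between treatments than FAS and EDA2R in size. TNFRSF10B (ENSG00000120889.13) had 160.6, 129.8 and 149.4 CPM in DMSO and 174.3, 141.6 and 161.7 CPM in S767. The groups overlapped because replicate 2 was low and replicate 1 high under both treatments, but the ratio within each number was nearly constant, at 0.12, 0.13 and 0.11 on the log2 scale. Its log2 fold change was 0.12 with an SE of 0.092 without the block and 0.022 with it, and leaving out DMSO replicate 2 or S767 replicate 1 lowered it to 0.04 or 0.05.

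For TNFRSF10A (ENSG00000104689.10), CPM values were 35.3, 34.8 and 36.0 in DMSO and 38.4, 36.0 and 36.1 in S767. The highest DMSO library and the lowest S767 library were both at 36.0, so the groups were separated only beyond the printed digits. Its log2 fold change of 0.06 (SE 0.05) turned to -0.01 on both TPM scales, where the mean was 17.1 TPM in DMSO and 17.0 in S767.

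**Figure D3:**
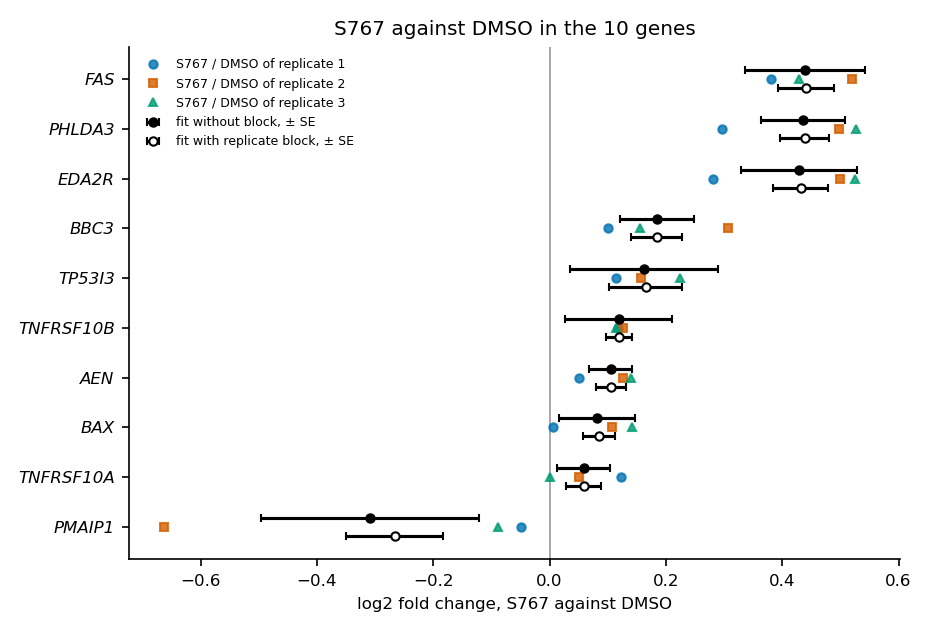
Log2 fold change of S767 against DMSO (x axis) for each gene, from the fit without block (filled circles, ± SE) and with the replicate block (open circles, ± SE), with the log2 ratio within each replicate number as colored symbols. Of the 10 genes, 9 lie right of 0, FAS, PHLDA3 and EDA2R furthest, and PMAIP1 lies left of it with replicate 2 at -0.66.

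Of the mitochondrial genes, BAX (ENSG00000087088.20, chromosome 19, 48954815 to 48961798, plus strand) had 137, 122 and 115 CPM in DMSO and 138, 131 and 127 CPM in S767. The groups overlapped, and the log2 ratio ran from 0.01 in replicate 1 to 0.14 in replicate 3. The fitted log2 fold change was 0.08 (SE 0.07).

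BBC3, the gene of PUMA (ENSG00000105327.17, chromosome 19, 47220822 to 47232766, minus strand), had 14.4, 12.98 and 14.4 CPM in DMSO and 15.4, 16.1 and 16.1 CPM in S767. All S767 libraries were above all DMSO libraries, by a log2 fold change of 0.19 (SE 0.06). In size this was less than for FAS.

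PMAIP1, the gene of NOXA (ENSG00000141682.11, chromosome 18, 59899948 to 59904306, plus strand), went the other way, with 42.3, 74.9 and 46.6 CPM in DMSO and 40.9, 47.3 and 43.9 CPM in S767. DMSO replicate 2 was high, and the other DMSO libraries lay within the S767 range. The log2 fold change of -0.31 (SE 0.19) came mainly from that library, since it was -0.02 without it. Within the replicate numbers the log2 ratio was -0.05, -0.66 and -0.09.

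Of the remaining genes, the AKT antagonist PHLDA3 (ENSG00000174307.7, chromosome 1, 201464383 to 201469237, minus strand) had 21.0, 17.6 and 18.4 CPM in DMSO and 25.8, 24.8 and 26.5 CPM in S767. The gap between the groups, from 21.0 to 24.8 CPM, was wider than the whole range of the S767 libraries. The log2 fold change was 0.44 (SE 0.07) and the ratio within the numbers went from 0.30 to 0.53. Over all 22 alternatives it lay between 0.38 and 0.52.

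AEN (ENSG00000181026.15, chromosome 15, 88621296 to 88632282, plus strand) had 99.5, 94.2 and 95.3 CPM in DMSO and 103, 103 and 105 CPM in S767. The difference was small but the libraries were tight, with a log2 fold change of 0.11 (SE 0.04). On the TPM scale the groups overlapped, from 42.7 to 46.9 TPM in DMSO and from 46.6 to 48.9 TPM in S767. In TPM, every S767 library was above every DMSO library for 4 of the 10 genes, FAS, EDA2R, PHLDA3 and BBC3, which held for 3.31% of all genes.

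TP53I3 (ENSG00000115129.14, chromosome 2, 24077433 to 24085861, minus strand) had 4.61, 3.79 and 3.54 CPM in DMSO and 4.99, 4.22 and 4.14 CPM in S767. The groups overlapped, with replicate 1 highest in both, and the log2 fold change was 0.16 (SE 0.13). The gene lies wholly inside FAM228B, which is read from the opposite strand, and with both strands counted the log2 fold change was 0.12. Left-out libraries moved it from 0.07 (without S767 replicate 1) to 0.28 (without DMSO replicate 1).

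Levels also differed between replicate numbers. The labels do not say what libraries of a number share. This contrast did not choose the genes, but its test takes its residual from the same ratios within replicate numbers that did, so it is given as a description. With treatment as a term, the replicate number passed an adjusted p of 0.05 in the edgeR quasi-likelihood test in 6 of the 10 genes, compared with 28.7% of all 20725 genes, and nothing is read from that count. In TNFRSF10B, replicate 2 was below replicate 1 by a log2 difference of -0.30 and replicate 3 by -0.11. PMAIP1 was higher in replicate 2, by 0.53, the reverse of the other 5 genes that passed. FAS and EDA2R were lower in replicate 2 by -0.26 and -0.25, and BAX and TP53I3 were lowest in replicate 3, by -0.19 and -0.32. Among PHLDA3, TNFRSF10A, BBC3 and AEN, which did not pass, the widest difference was that of PHLDA3, at -0.16 in replicate 2. In 5 genes (FAS, TNFRSF10B, BAX, PMAIP1 and TP53I3) the 3 numbers came in the same order in DMSO and in S767, as they did in 38.3% of all genes. Without S767 replicate 2, the test called TNFRSF10B, BAX and PMAIP1 and 10.3% of all genes, and without treatment as a term it called TNFRSF10B and 14.2% of all genes.

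**Figure D4:**
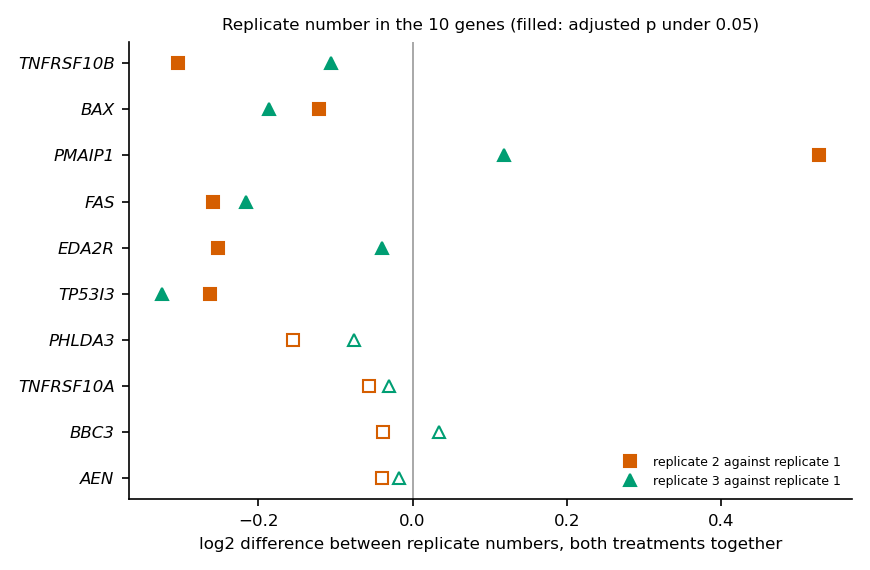
Log2 difference of replicate 2 (squares) and replicate 3 (triangles) from replicate 1, from the edgeR fit over both treatments, with filled symbols where the adjusted p of the replicate number is under 0.05. Filled symbols mark 6 genes, of which PMAIP1 lies right of 0 (0.53 in replicate 2) and the other 5 lie left of it.

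RSEM also gives each gene an effective length, which moves with the mix of its transcripts and with fragment length. It was not itself used to choose the genes, but it enters the TPM values, whose ratios were, so it is given as a description. Its log2 ratio of S767 to DMSO lay between -0.02 (PHLDA3) and 0.05 (FAS), within the 5th to 95th percentile of all genes (-0.10 to 0.10). The groups overlapped in all 10 genes. Exact permutation tests, two-sided, gave p from 0.3 to 0.9, where 3 libraries against 3 allow no p below 0.1, so a difference could not have passed 0.05. FAS varied most between DMSO libraries, by 15.5% in effective length.

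A further 57 genes of the apoptosis and p53 pathways were grouped in 5 lists, and 52 of them passed the limit on low counts. Their median log2 fold change was 0.02, with 35 above 0 and 17 below. None passed an adjusted p of 0.05 in the edgeR test without the block (5 had an unadjusted P under 0.05) or in limma-voom or DESeq2 without it. With the block, 5 of 52 (9.62%) were called, all of them higher in S767, against 3.23% of all genes. Without replicate 2 the block fit called MDM2 alone, and 0.113% of all genes. The lists were drawn up with earlier results of these data known, so nothing is read from these counts.

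The extrinsic list holds ligands, receptors and adaptors, and none of its 10 tested genes passed either test. The death ligand FASLG did not exceed 0.01 TPM in any library and EDA did not exceed 0.04 TPM, so the ligands of FAS and of the ectodysplasin receptors were nearly absent as transcripts. The TRAIL ligand gene TNFSF10 was expressed, at 30.2, 29.2 and 33.6 TPM in DMSO and 30.5, 28.3 and 31.3 TPM in S767. Its log2 fold change was -0.11 (SE 0.06), with an edgeR adjusted p = 1 without the block and 0.063 with it. In CPM, S767 was above DMSO in none of the replicate numbers. With the block but without replicate 1, the edgeR adjusted p of TNFSF10 was 0.0026. The adaptor FADD was at 41.2 ± 2.3 TPM in DMSO and 38.2 ± 2.5 in S767, and the initiator caspase CASP8 at 15.8 ± 0.97 and 16.7 ± 0.78 (mean ± SD, n = 3). Of the decoy TRAIL receptors, TNFRSF10C was below 0.1 TPM and TNFRSF10D at 1.32 to 1.75 TPM.

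In the mitochondrial and execution list, none of 17 tested genes passed either test, and log2 fold changes ran from -0.19 to 0.10. The lowest was that of DIABLO, whose counts (143 to 227 fragments) are uncertain. A gene listed under the same symbol covers its span on the same strand, and the part of that overlap was not tested. BAK1, which forms pores as BAX does, was at 20.2 ± 1.3 TPM in DMSO and 20.3 ± 1.4 in S767. Among the BCL2 family partners, the protective BCL2 (57.3 ± 8.8 and 55.9 ± 6.2 TPM) and MCL1 (131 ± 8.6 and 127 ± 14 TPM) differed by less than the spread between libraries. BMF, a BH3-only gene, was the only one of 9 called with the block in edgeR, against 3.23% of all genes. Its log2 fold change with the block was 0.13 (SE 0.03, edgeR adjusted p = 0.046). Without the block its SE was 0.15, the groups overlapped in CPM, and limma-voom with the block did not call it.

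Among the regulators of p53, MDM2 was at 43.2, 40.1 and 39.6 TPM in DMSO and 50.9, 42.6 and 46.9 TPM in S767. In CPM its groups did not overlap, and the log2 fold change was 0.23. Without the block the SE was 0.05 and the edgeR adjusted p = 1, and with it the SE was 0.03 and the adjusted p 0.0010. It was the only gene of the 8 in its list called with the block, against 3.23% of all genes, and nothing is read from that count. The checkpoint kinase CHEK2 had a log2 fold change of 0.10 (SE 0.04) and an unadjusted P under 0.05. Its edgeR adjusted p was 1 without the block and 0.079 with it.

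Of 8 other p53 targets linked to cell death, 3 were called with the block, against 3.23% of all genes. As the lists were drawn up with earlier results known, nothing is read from that count. The p53-induced nuclear protein gene TP53INP1 had 3.14, 2.67 and 2.97 TPM in DMSO and 3.86, 3.17 and 3.41 TPM in S767. Its log2 fold change was 0.26 (SE 0.08 without the block, and SE 0.04 and edgeR adjusted p = 0.0031 with it). SPATA18, involved in mitochondrial quality control, was at a level of 1.17 to 1.52 TPM. Its log2 fold change was 0.33 (SE 0.10 without the block, and SE 0.08 and edgeR adjusted p = 0.0355 with it). PIDD1, a death-domain protein that activates caspase-2, had a log2 fold change of 0.16 (SE 0.06 without the block, and SE 0.03 and edgeR adjusted p = 0.011 with it). Without the block the adjusted p was 1 for all 3. Over the alternatives the edgeR, limma or DESeq2 adjusted p reached from 4.75e-10 to 1.00 for MDM2, from 3.82e-05 for TP53INP1, from 9.77e-05 for BMF, from 0.00028 for PIDD1 and from 0.0010 for SPATA18, each up to 1. Of the genes of this list that passed neither test it reached from 8.95e-07 for DRAM1 and from 0.019 for STEAP3, again up to 1. DRAM1 was lower in S767 by a log2 fold change of -0.11. Both were called with the block without replicate 1, where 15 pathway genes and 9.86% of all genes were called. In other lists, TNFSF10, BID, CASP6, BCL2L2, BAD, PPM1D and CHEK2 were among those called only in that setting. Without the block, TNFSF10 and BCL2L2 were lower in S767 and the others named were higher. DRAM1, STEAP3, SIVA1, PERP and TP53AIP1 passed neither the test without the block nor the test with it.

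**Figure D5:**
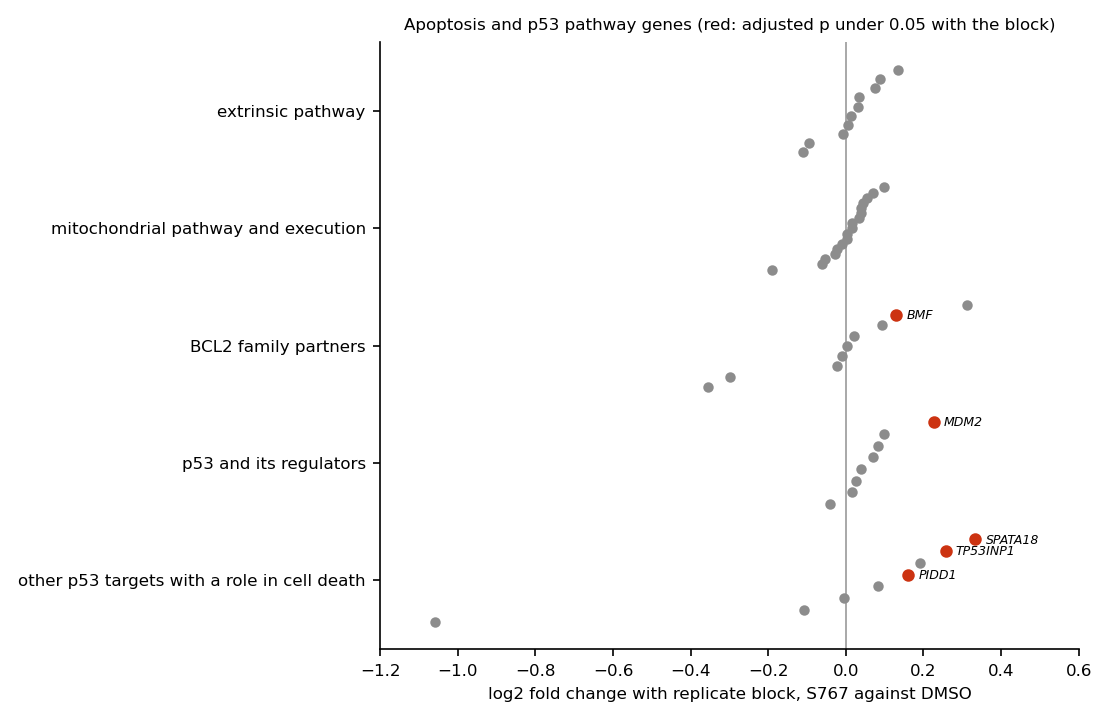
Log2 fold change with the replicate block (x axis) of the 52 tested pathway genes in 5 lists (rows, genes sorted within a row), red where the adjusted p is under 0.05 with the block. The 5 red genes, BMF, MDM2, PIDD1, TP53INP1 and SPATA18, lie right of 0, from 0.13 to 0.33, and most gray points lie close to 0.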

How the data were processed

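RNA from OCI-AML5 cells was sequenced as stranded, polyA-selected libraries. Per the labels, the authors aligned reads with STAR 2.7.1a and quantified genes with RSEM 1.2.28 on GRCh38; the annotation release is not given in the sources used here. The deposited count tables hold fragment counts per gene without normalization, for both strands together and for each strand. The authors also deposited RSEM expected counts and TPM values, and effective lengths. Reverse-strand counts were analysed because forward counts were 6.44 to 6.58% of all. The 4 summary lines of each file (19.7 to 20.7% of fragments) are not genes and were not used. Total gene counts were 149994700 to 258029564 per library, and no library repeated another. Positions are those of GENCODE 29, in which all 10 members were found.

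Counts were filtered with filterByExpr (minimum count 10), scaled with TMM and compared by quasi-likelihood F tests (edgeR 4.0.16, R 4.3.3) without a block. Benjamini-Hochberg adjustment was made over 20725 genes. The test was also run on simulated counts with changes larger than those of the members, so that check does not cover changes of their size. Each SE was derived from the log2 fold change and its F statistic. Log2 ratios within a replicate number used a prior count of 2. Same-numbered libraries were treated as pairs because their residuals from each treatment mean correlated at 0.78, 0.87 and 0.75 over 6191 genes. Unlike numbers correlated negatively, which follows in part from subtracting the treatment means. This pairing comes from the values, since neither the labels nor the methods say what a number shares. Alternatives were limma-voom and limma-trend (limma 3.58.1, log2(TPM + 1) and log2(TPM + 0.1)), DESeq2 1.42.0, other scalings and filters, expected counts rounded to whole numbers, both strands, the replicate block and left-out libraries. Effective lengths were compared by exact permutation. The members and lists were chosen with earlier results of these data known. All 10 members are named; of the pathway genes, up to 4 per list with an unadjusted P under 0.05 are named, and always MDM2, CASP8, FADD, FASLG, TNFSF10, EDA, BAK1, BCL2 and MCL1. A further gene that the rule always names is not reported here. Other pathway genes were named after their values were seen.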

Additional observations from a re-analysis of the deposited data

Results flagged for a closer look

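Fragments on the strand opposite to a gene were not used in the main comparison, and entered the alternative that counted both strands together. At 3 of the 10 genes, every S767 library had more of them per 1000000 gene counts than every DMSO library, as held for 2.03% of all genes tested. At FAS they were 5.97, 5.37 and 5.33 in DMSO and 7.03, 6.67 and 7.08 in S767 (mean 6.93), from 805 to 1652 fragments per library. ACTA2, the gene of smooth muscle actin, overlaps FAS by 758 bases on that strand. Its own log2 fold change was 0.32 (SE 0.06), with an adjusted p of 0.84 in edgeR without the block and 0.00052 with it. At TP53I3, which lies inside FAM228B, the values were 1.02, 0.853 and 1.05 in DMSO and 1.15, 1.12 and 1.17 in S767 (mean 1.15). At PHLDA3 they were 0.0925, 0.113 and 0.108 in DMSO and 0.123, 0.121 and 0.127 in S767 (mean 0.124), from 17 to 29 fragments, 0.508% of the fragments on its own strand. At TNFRSF10A every S767 library was below every DMSO library (0.49, 0.54 and 0.419 in DMSO, 0.328, 0.417 and 0.361 in S767), as held for 4.69% of all genes. The part of either overlap in these values was not tested.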

How the results depend on the processing

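The count of members past an adjusted p of 0.05 was 0 without a block, 3 with DESeq2 (0.121% of all genes) and 1 with no filter on low counts (0.0255%). With the replicate block it was 6 in edgeR (3.23%), 5 in limma-voom (2.94%) and 6 in DESeq2 (3.04%). Without a block it was 0 whichever library was left out, and with the block it ran from 1 without replicate 2 (0.113% of all genes) to 8 without replicate 1 (9.86%). The count past the study's limits in either direction was 3 (1.23% of all genes), and fell to 1 on the log2(TPM + 1) scale (0.174%). It ran from 0 without DMSO replicate 2 (1.38%) to 4 without DMSO replicate 1 (1.77%), where the fourth was PMAIP1, lower at -0.46. With the block and a number left out it ran from 1 (2.27%) to 3 (1.85 or 3.25%). The members' median log2 fold change, 0.14, was 0.11 on log2(TPM + 1), 0.12 on log2(TPM + 0.1) and 0.12 with both strands, and 0.091 to 0.20 with a library left out (0.12 to 0.16 with the block and a number left out). Pathway genes past the adjusted p numbered 5 with the block (3.23% of all genes), 4 in limma-voom (2.94%) and 5 in DESeq2 (3.04%) with it, against 0 without it. With the block and a number left out they ran from 1 without replicate 2 (0.113%) to 15 without replicate 1 (9.86%). The replicate number was called in 6 members (28.7% of all genes), and in 1 without the treatment term (14.2%). With a library left out, an alternative chosen after seeing the data, it was called in 3 (10.3%, without S767 replicate 2) to 7 members (27.3 to 31.1%). The cause of these shifts was not tested. Of 220 values of a member's log2 fold change under alternatives, 204 moved by less than the spread between replicates, and a sign changed only for TNFRSF10A, on both TPM scales. All 60 effective length ratios moved by less than that spread. TPM levels in DMSO rebuilt from stranded counts moved by more in 9 of 10 genes. Depth limits little here, since the members' counts run from 563 to 41515 fragments. With 3 libraries per group, the spread between libraries limits what can be called.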
